A study of Mus musculus with 6 samples.

Results

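The genes of oxidative phosphorylation were examined in colon tumors of Tmem173fl/fl and Tmem173iΔmye mice. Tmem173 encodes STING, a sensor protein of the innate immune system that responds to DNA in the cytosol. The genes were taken by name, as the protein-coding genes whose symbols begin with Nduf, Uqcr, Cox4 to Cox8, Atp5, mt-Nd, mt-Co, mt-Atp or mt-Cytb, together with Sdha, Sdhb, Sdhc and Sdhd. This gave 107 of the 54532 genes listed, of which 94 lie in the nuclear genome and 13 in the mitochondrial genome. The symbols take in 8 Ndufaf genes, which encode factors that assemble complex I and are not subunits of it, and they leave out the subunit genes Cyc1 and Usmg5.

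Both groups carried floxed alleles of Tmem173 on a C57BL/6N background, received azoxymethane (AOM), a carcinogen, and 3 cycles of dextran sulfate sodium (DSS), which injures the colon, and were then given tamoxifen (TAM) at 120 mg/kg in 5 injections. The Tmem173iΔmye mice also carried a TAM-inducible Cre driven by Lyz2, a gene of macrophages, monocytes and neutrophils, so deletion was aimed at myeloid cells alone. Polyadenylated RNA of whole tumors was sequenced for 3 mice per genotype, and the age of these mice is not given in the sources used here. In bulk tumor RNA, fewer cells of a type and less RNA per cell cannot be told apart. The 12 epithelial markers examined, among them Epcam and Krt8, were each present in every tumor. Tmem173 itself had 136 ± 49.8 (SD, n = 3) counts scaled to library size (CPM) in Tmem173fl/fl and 136 ± 10.9 (SD, n = 3) in Tmem173iΔmye tumors, so its level in whole tumor does not show the deletion.

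Oxidative phosphorylation takes place in the inner mitochondrial membrane. Complexes I and II pass electrons from NADH and succinate to ubiquinone, complex III passes them to cytochrome c and complex IV to oxygen, while complex V, the ATP synthase, uses the resulting proton gradient to make ATP. Most subunits are encoded in the nucleus and imported, whereas a small core of complexes I, III, IV and V is encoded by the mitochondrial genome and transcribed inside the organelle. The colonic epithelium is rich in mitochondria and is known for oxidizing butyrate.

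Nuclear and mitochondrial members lay on opposite sides of 0 when Tmem173iΔmye tumors were compared with Tmem173fl/fl tumors, but no single member passed the test and the mice of the groups overlapped for every one of them. The 89 nuclear members with a mean FPKM (counts scaled by gene length and by library size) of at least 0.5 were tested together with all other such genes by edgeR's quasi-likelihood test. Of these, 86 had a log2 fold change (Tmem173iΔmye over Tmem173fl/fl) above 0, with a median of 0.33 and a range from -0.06 for Uqcrc2 to 1.34 for Cox6b2. Of the 13 mitochondrial members, 12 had a log2 fold change below 0, with a median of -0.22 and a range from -0.86 for mt-Nd4l to 0.20 for mt-Co3. Both ends are among 5 members whose levels are uncertain, because nearly all their sequence also occurs on chromosome 1, as described below. These 5 had a median of -0.49, with 4 below 0, and the other 8 had a median of -0.17, with 8 below 0. Over all 16426 genes tested, 49.4% were above 0 and the median was 0.00.

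None of the 102 members tested had an adjusted p under 0.05, and 0.0% of all genes tested did, the smallest adjusted p being 0.742 with edgeR's quasi-likelihood test and Benjamini-Hochberg adjustment. At an unadjusted p under 0.05, 3.23% of all genes were higher and 2.9% lower in Tmem173iΔmye tumors, 1008 genes in all, while 0 of 89 nuclear and 0 of 13 mitochondrial members were on either side. When all 30939 genes with any count were tested instead, 16 nuclear members were higher at that level, where 3.19% of all genes were. DESeq2 called 28 genes at an adjusted p under 0.05, none of them a member. The lowest unadjusted p among members was 0.0503 for Cox6b2 and, among mitochondrial members, 0.0649 for mt-Nd5 (both from edgeR, adjusted p = 0.742). The 3 tumors of one group lay wholly above the 3 of the other for 0 members, where 6.03% of all genes were higher without overlap and 6.47% lower without overlap.

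A pair of tumors stood apart in the nuclear members. On the log2(CPM + 1) scale, the median deviation of the nuclear members from their mean over the 6 tumors was 0.19, -0.50 and -0.19 in Tmem173fl/fl replicates 1 to 3 and 0.51, 0.05 and -0.08 in Tmem173iΔmye replicates 1 to 3, an order kept for all values that follow. Tmem173iΔmye replicate 1 had the highest value of the 6 tumors for 81 of the 89 nuclear members, and Tmem173fl/fl replicate 2 had the lowest for 66. The other 4 tumors lay between them, with Tmem173fl/fl replicate 1 above Tmem173iΔmye replicates 2 and 3. Without Tmem173fl/fl replicate 2 the nuclear median was 0.18, without Tmem173iΔmye replicate 1 it was 0.11, and without both it was -0.02, with 39 of 89 members above 0. Since this pair was picked as the highest and the lowest tumor of these same genes, a lower median without it follows in part from the choice. Without Tmem173fl/fl replicate 1 it was 0.49, and 32 of the 89 were then higher at an unadjusted p under 0.05, where 5.84% of all genes were. Y-linked genes were read in 1 Tmem173fl/fl tumor (replicate 1) and in 2 Tmem173iΔmye tumors (replicates 1 and 2), so sex was not balanced, and with it as a covariate the nuclear median was 0.18, with 82 of 89 above 0.

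**Figure D1:**
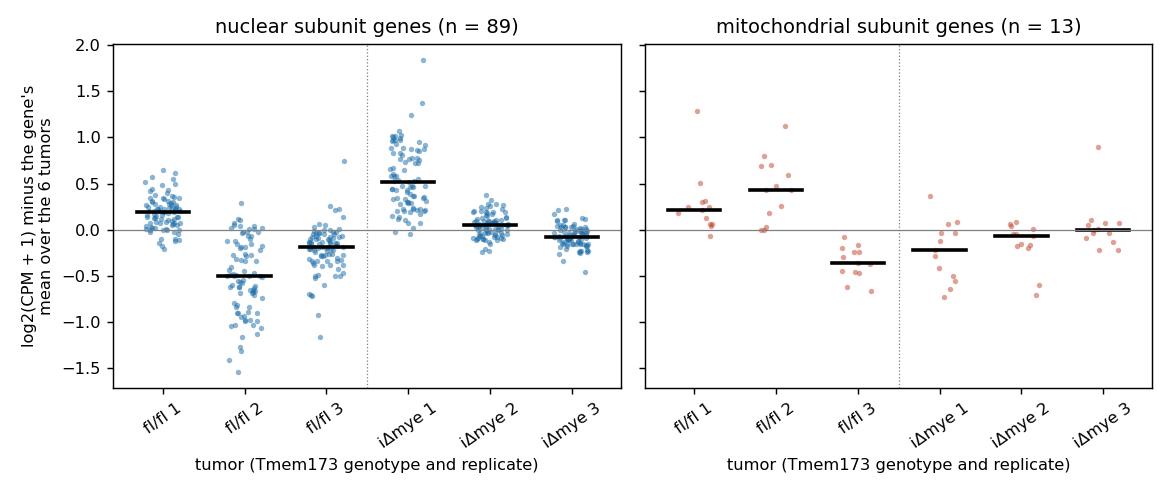
Each point is 1 gene in 1 tumor, as log2(CPM + 1) minus the gene's mean over the 6 tumors (y axis), for the 89 nuclear members tested (left) and the 13 mitochondrial members (right); the x axis gives the 6 tumors and black bars are medians. Among nuclear members, Tmem173iΔmye replicate 1 (median 0.51) lies highest and Tmem173fl/fl replicate 2 (median -0.50) lowest.

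The mitochondrial members followed another order of tumors. Their median deviation was 0.21, 0.42 and -0.36 in the Tmem173fl/fl tumors and -0.22, -0.07 and 0.00 in the Tmem173iΔmye tumors. Tmem173fl/fl replicate 2, the lowest tumor for nuclear members, had the highest value for 9 of the 13 mitochondrial members, and Tmem173fl/fl replicate 3 had the lowest for 6. Counts on the mitochondrial members were 3.16%, 3.41% and 2.43% of all counts in Tmem173fl/fl tumors (mean 3.0% ± 0.51, SD, n = 3) and 2.30%, 2.65% and 2.76% in Tmem173iΔmye tumors (mean 2.57% ± 0.24, SD, n = 3). The difference of the means was -0.43 percentage points, and the groups overlapped. Counts on the nuclear members were 1.15%, 0.78% and 0.94% in Tmem173fl/fl and 1.34%, 1.05% and 0.98% in Tmem173iΔmye tumors, also with overlap. Set against each other, nuclear over mitochondrial counts came to 0.36, 0.23 and 0.39 in Tmem173fl/fl and 0.58, 0.40 and 0.35 in Tmem173iΔmye tumors. This ratio was highest in Tmem173iΔmye replicate 1 and lowest in Tmem173fl/fl replicate 2, with the other 4 tumors between 0.35 and 0.40.

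Complex I carries the largest number of members. All 38 of its nuclear members were tested, 37 of them above 0, with a median log2 fold change of 0.30 and a mean FPKM between 1.15 and 111. Here and below, abundance is ranked by mean FPKM, and the order can differ by CPM, which is not scaled by gene length. The most abundant nuclear member of complex I was Ndufa2, an accessory subunit. It had 123, 58.0 and 82.6 FPKM in the Tmem173fl/fl and 184, 120 and 97.9 FPKM in the Tmem173iΔmye tumors. Its log2 fold change was 0.60 (SE 0.32, adjusted p = 0.742 from edgeR). Only Tmem173fl/fl replicate 1 lay within the range of the Tmem173iΔmye tumors. At the low end, Ndufv3 and Ndufs1, subunits of the arm that oxidizes NADH, stood at -0.01 (SE 0.28) and 0.01 (SE 0.12), and Ndufv3 was the 1 nuclear member of the complex below 0. At the high end, Ndufa3 and Ndufs6, both small accessory subunits, stood at 0.93 (SE 0.53) and 0.76 (SE 0.39). These 4 genes are named after their values were seen. The 8 assembly factors had a median of 0.18, with 7 above 0, and the most abundant of them, Ndufaf8, had 260, 119 and 169 counts (Tmem173fl/fl) against 366, 216 and 181 counts (Tmem173iΔmye) (log2 fold change 0.46, SE 0.36, adjusted p = 0.77 from edgeR).

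Complex II, succinate dehydrogenase, belongs to the TCA cycle as well and has no mitochondrially encoded subunit. Among the nuclear groups, its 4 genes showed the narrowest range, from 0.05 to 0.22, with a median of 0.16. Sdhd, one of the membrane anchors, was the most abundant, with 149, 119 and 139 FPKM in Tmem173fl/fl and 184, 136 and 138 FPKM in Tmem173iΔmye tumors (log2 fold change 0.17, SE 0.17, adjusted p = 0.809 from edgeR). The high value of Tmem173iΔmye replicate 1 apart, the tumors of both groups lay within one range.

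In complex III, 7 of 8 nuclear members were above 0, with a median of 0.48. Uqcr10, a small subunit and the most abundant one, had 199, 83.7 and 153 FPKM in Tmem173fl/fl and 304, 176 and 145 FPKM in Tmem173iΔmye tumors (log2 fold change 0.52, SE 0.37, adjusted p = 0.757 from edgeR). The groups overlapped, and Tmem173fl/fl replicate 2 was lowest. Uqcrc2, a large core subunit, had 66.2, 67.3 and 68.2 FPKM in Tmem173fl/fl and 64.8, 67.9 and 60.5 FPKM in Tmem173iΔmye tumors and, at -0.06 (SE 0.11), the lowest fold change of the nuclear members. Cyc1, which encodes cytochrome c1 and which the name rule misses, stood at 0.15 (SE 0.17, adjusted p = 0.831 from edgeR).

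Complex IV had the highest median of the complexes, 0.51, with all 14 nuclear members tested above 0. Several of its subunits exist as a form found in most tissues and a form known to be restricted to muscle, fat, lung, pericytes or testis. Among the widespread forms, Cox8a, on chromosome 19 from 7215158 to 7217616 of GRCm38, had the highest mean FPKM of all nuclear members. It had 539, 158 and 325 FPKM in the Tmem173fl/fl tumors and 760, 457 and 365 FPKM in the Tmem173iΔmye tumors. This was 341 ± 191 (SD, n = 3) against 527 ± 207 (SD, n = 3), and the log2 fold change was 0.62 (SE 0.44, adjusted p = 0.757 from edgeR). The Tmem173fl/fl tumors alone spanned more than the difference between the group means. Cox6a1 stood at 0.49 (SE 0.33), Cox6b1 at 0.61 (SE 0.37) and the X-linked Cox7b at 0.64 (SE 0.37), while Cox4i1 stood at 0.29 (SE 0.24) and Cox7a2 at 0.39 (SE 0.30). Ndufa4, counted here with complex I by its name and also known as a subunit of complex IV, stood at 0.33 (SE 0.29).

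**Figure D2:**
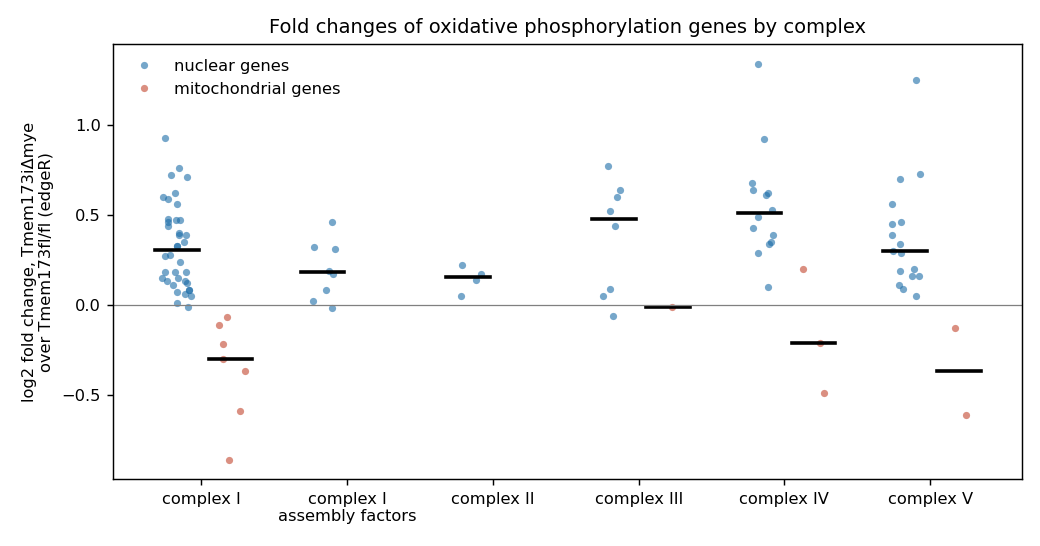
Points are genes, plotted by complex (x axis) against their log2 fold change, Tmem173iΔmye over Tmem173fl/fl, from edgeR (y axis), with nuclear genes in blue, mitochondrial genes in red and medians as black bars. Nuclear medians run from 0.16 in complex II to 0.51 in complex IV, and mitochondrial medians from -0.37 in complex V to -0.01 in complex III. The complex III value is mt-Cytb alone. That of complex V rests on mt-Atp6, whose level is uncertain, and mt-Atp8, at a mean of 2.7 FPKM.

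The restricted forms were rare or absent in these tumors. Cox7b2 and Cox8c, forms of the testis, were at 0 counts in every tumor, and the muscle and brown fat forms Cox6a2 and Cox8b had at most 2 and at most 5 counts in any tumor. These 4 genes and a second row named Atp5o, also at 0 counts, are the 5 nuclear members that were not tested. Cox6b2, a form best known from testis that lies on chromosome 7 from 4751792 to 4753094, was the member with the lowest p, with 66, 16 and 29 counts (Tmem173fl/fl) against 154, 71 and 60 counts (Tmem173iΔmye). Its log2 fold change was 1.34 (SE 0.58, adjusted p = 0.742 from edgeR), and Tmem173fl/fl replicate 1 lay above Tmem173iΔmye replicate 3. On the FPKM scale its mean over the 6 tumors was 3.75, far below its widespread partner Cox6b1, which ran from 105 to 386.

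Cox7a1, a form of heart and skeletal muscle, was at 14.2, 3.50 and 3.90 FPKM in Tmem173fl/fl and 19.9, 10.5 and 10.9 FPKM in Tmem173iΔmye tumors (log2 fold change 0.92, SE 0.58, adjusted p = 0.752 from edgeR). Again only Tmem173fl/fl replicate 1 lay within the range of the other group. Skeletal muscle markers were near the floor in the same tumors: 3 of the 10 passed the filter, and Myh1, Myh4 and Pvalb were at 0 everywhere. All 3 tested were above 0, with a median of 0.55. The list summed to between 11.3 and 17.9 CPM in Tmem173fl/fl and between 19.6 and 21.2 CPM in Tmem173iΔmye tumors, without overlap. Most of the sum was Tnni2, at 7.57 to 12.44 and 11.82 to 13.7 CPM in these groups, with overlap. Acta1 ran from 1.53 to 3.76 and from 3.83 to 6.16 CPM. The tested markers had a median transcript length of 768 bases. Cox4i2 and Ndufa4l2, known from lung and pericytes, had at most 21 and at most 43 counts in any tumor, with log2 fold changes of 0.35 (SE 0.46) and 0.12 (SE 0.77). Of 8 pericyte markers, 6 were tested and the list summed to between 139 and 156 CPM in Tmem173fl/fl and between 150 and 172 CPM in Tmem173iΔmye tumors. The part of these cells in the values of the restricted forms was not tested.

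In complex V, all 17 nuclear members tested were above 0, with a median of 0.30. Atp5a1 and Atp5b, which form the catalytic head, were the most abundant and among the least different. Atp5a1 had 342, 340 and 300 FPKM in the Tmem173fl/fl and 352, 326 and 338 FPKM in the Tmem173iΔmye tumors, and its log2 fold change was 0.05 (SE 0.14, adjusted p = 0.944 from edgeR). All 6 tumors lay close together for this gene. Atp5k, a small membrane subunit that helps ATP synthases to dimerize and that is named here after its values were seen, had 83.0, 21.7 and 23.4 FPKM in Tmem173fl/fl and 199, 58.6 and 49.2 FPKM in Tmem173iΔmye tumors (log2 fold change 1.25, SE 0.69, adjusted p = 0.742 from edgeR). Tmem173fl/fl replicate 1 exceeded Tmem173iΔmye replicates 2 and 3.

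The c subunit, which makes up the rotor ring of the ATP synthase, is encoded by 3 nuclear genes with different leader peptides. Atp5g3 was the most abundant of them, with 162, 92.3 and 125 FPKM in Tmem173fl/fl and 181, 122 and 123 FPKM in Tmem173iΔmye tumors (log2 fold change 0.16, SE 0.25). Atp5g2 had 88.3, 57.5 and 72.5 FPKM and 108, 85.3 and 83.6 FPKM in these groups (log2 fold change 0.34, SE 0.19), although 86.4% of its 100-base windows also occur in other genes, so that its reads can be shared. Atp5g1 had 22.9, 14.4 and 18.2 FPKM and 29.0, 20.2 and 19.4 FPKM (log2 fold change 0.30, SE 0.22). The 3 genes kept the same order of levels in all 6 tumors, and their groups overlapped. Atp5l was the other tested nuclear member with more than 50% of its windows in other genes (69.0%), so its count is uncertain too.

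The fold changes of the nuclear members varied with the length of their transcripts. Transcript length here is that of the protein-coding transcript with the best principal mark in the GENCODE annotation. Among transcripts with equal marks, or with none, the longest was taken. By this rule Atp5g1 had 4715 bases, Ndufb2 4371 and Ndufab1 3479, which places them in the class from 3000 to 5000 bases below. Its median was 875 bases for the nuclear members and 2926 bases for 12994 other protein-coding genes tested, and 56.2% of the nuclear members against 6.6% of the others were under 1000 bases. The 50 nuclear members under 1000 bases had a median log2 fold change of 0.45, all of them above 0, and the 39 members of 1000 bases or more had a median of 0.14, with 36 above 0. By complex, the median length was shortest in complex IV (652 bases) and longest in complex II (2065.5 bases). These complexes had the highest and the lowest nuclear median fold change. Over the 89 nuclear members, Spearman's rho between fold change and transcript length was -0.63, against 0.06 with GC content. These genes share tumors and libraries, so the coefficients describe them and carry no p.

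Genes outside oxidative phosphorylation showed a slope in the same direction. The 852 other protein-coding genes with transcripts under 1000 bases had a median log2 fold change of 0.28, with 75.8% above 0, whereas the 2376 with transcripts of 5000 bases or more had a median of -0.15, with 22.1% above 0. Over all 12994 of them, Spearman's rho with length was -0.40. By tumor, the median deviation of the short ones from the gene means was 0.12, -0.42 and -0.10 in Tmem173fl/fl and 0.39, 0.03 and -0.05 in Tmem173iΔmye tumors, and that of the long ones -0.06, 0.25 and 0.02 and -0.21, -0.02 and 0.02. Short transcripts thus were lowest in Tmem173fl/fl replicate 2 and highest in Tmem173iΔmye replicate 1, the tumors that stood apart for the nuclear members, and long transcripts the reverse.

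Within length classes, the members lay above the other genes in some and level with them in others. Under 500 bases, 6 members had a median of 0.75 and 129 other genes 0.25, from 500 to 750 bases 31 members had 0.43 and 268 other genes 0.32, and from 750 to 1000 bases 13 members had 0.45 and 455 other genes 0.27. Between 1000 and 3000 bases, the medians of members and other genes were 0.17 and 0.18, 0.08 and 0.10, and 0.06 and 0.04 in 3 successive classes. From 3000 to 5000 bases, 5 members had a median of 0.30, all of them above 0, and 3921 other genes -0.05. Which transcript of Atp5g1, Ndufb2 and Ndufab1, all in this class, these tumors express was not tested. The assigned lengths also enter the offset and rho given next. When the trend of each tumor with transcript length, estimated on protein-coding genes, was taken out as an offset in edgeR, the nuclear median was 0.12, with 60 of 89 members above 0. With this offset, rho with length was -0.34 for the nuclear members and -0.03 for the other genes. It was -0.40 and -0.18 without Tmem173fl/fl replicate 2, -0.43 and -0.24 without Tmem173iΔmye replicate 1, and 0.13 and 0.03 without both. Whether length sets the values of the nuclear members was not tested, and RNA quality is not given for these samples in the sources used here.

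**Figure D3:**
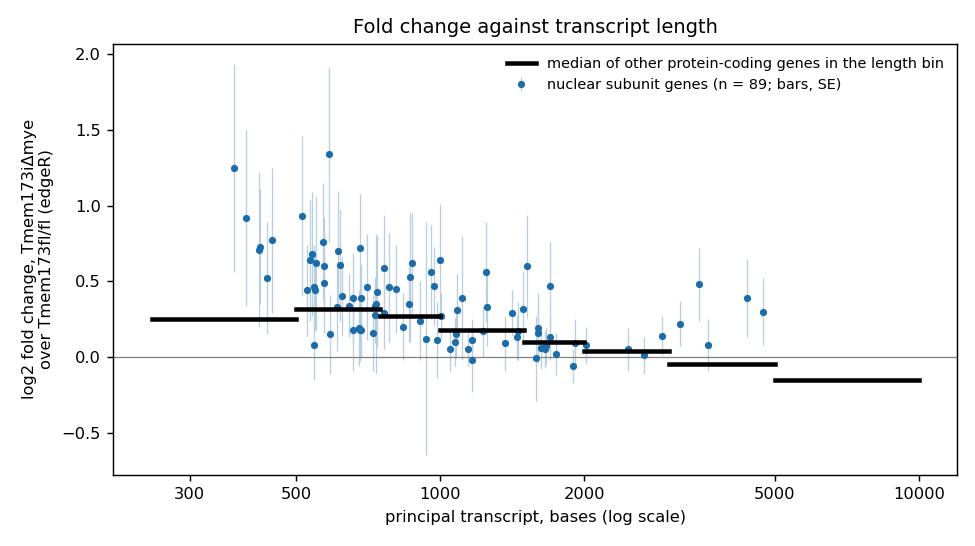
Blue points are the 89 nuclear members tested, with the length of the principal transcript in bases on a log scale (x axis) and the log2 fold change, Tmem173iΔmye over Tmem173fl/fl, with its SE (y axis); black lines are the medians of the other protein-coding genes in 8 length bins. The lines fall from 0.32 between 500 and 750 bases to -0.15 at 5000 bases or more, and most members lie around or above them.

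Start sites of the nuclear members were read from RefSeq promoters (GRCm38.p6), each spanning 250 bases before to 50 bases after the start. A promoter matched 77 of the 94 nuclear rows, which are 76 distinct genes. GCGCANGCG, the motif of NRF1, a factor known for binding promoters of respiratory chain genes, was present on either strand in 22 of these 76 genes (28.9%), against 14.3% of 10383 tested protein-coding genes and 7.0% of all 27025 genes with a promoter. CCGGAAG, the core of the motif bound by ETS factors such as GABPA, was present in 23.7% of the members and 19.2% of the tested genes. AAGATGGC, bound by YY1, was present in 14.5% and 5.0%, and the TATA box TATAAA in 9.2% and 9.7%. A match says that the letters occur in the window and is no evidence of binding. The promoters of Atp5k and Cox6b2, the nuclear members with the highest fold changes, are shown for the 200 bases before their starts, at chr5:108434400-108434599 and chr7:4753095-4753294, both on the minus strand of GRCm38.p6. Capitals mark the letters of the NRF1 motif, which reads on both strands in Atp5k and is not in the window of Cox6b2.
Atp5k: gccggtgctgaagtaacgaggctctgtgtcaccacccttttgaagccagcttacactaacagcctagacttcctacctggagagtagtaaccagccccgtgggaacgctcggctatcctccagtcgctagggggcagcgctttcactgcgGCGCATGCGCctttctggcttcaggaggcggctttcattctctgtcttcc
Cox6b2: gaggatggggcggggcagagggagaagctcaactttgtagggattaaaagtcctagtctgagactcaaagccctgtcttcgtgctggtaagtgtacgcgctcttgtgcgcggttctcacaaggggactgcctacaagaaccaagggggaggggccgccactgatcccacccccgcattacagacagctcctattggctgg

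The 13 mitochondrially encoded members differed widely in level, from a mean of 2.7 FPKM for mt-Atp8 to 8085 FPKM for mt-Co1. mt-Co1, the subunit of complex IV at which oxygen is reduced, had 9177, 9670 and 7157 FPKM in the Tmem173fl/fl and 6593, 7609 and 8303 FPKM in the Tmem173iΔmye tumors. Its log2 fold change was -0.21 (SE 0.21, adjusted p = 0.812 from edgeR), and the groups overlapped. mt-Cytb, the single mitochondrial subunit of complex III, had 4884, 4762 and 3012 FPKM and 4075, 4351 and 4198 FPKM in these groups (log2 fold change -0.01, SE 0.23). The Tmem173iΔmye tumors lay within the range of the Tmem173fl/fl tumors.

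The 7 mitochondrial subunits of complex I form its proton-pumping membrane arm, and all 7 had a log2 fold change below 0, with a median of -0.30. mt-Nd1 was the most abundant, with 4542, 5417 and 3368 FPKM in Tmem173fl/fl and 3575, 3448 and 3330 FPKM in Tmem173iΔmye tumors (log2 fold change -0.37, SE 0.21, adjusted p = 0.742 from edgeR). mt-Nd5, which spans 11742 to 13565 of the mitochondrial genome, had 1248, 2017 and 1090 FPKM in Tmem173fl/fl and 740.2, 1018 and 1126 FPKM in Tmem173iΔmye tumors (log2 fold change -0.59, SE 0.28, adjusted p = 0.742 from edgeR). For both genes, Tmem173fl/fl replicate 3 lay within the range of the other group. mt-Nd2 at -0.07 (SE 0.23), mt-Nd4 at -0.11 (SE 0.22) and mt-Nd6 at -0.22 (SE 0.24) differed by less than their errors.

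mt-Nd6 is the 1 member that lies on the minus strand of the mitochondrial genome, from 13552 to 14070, and it overlaps mt-Nd5 by 14 bases. The labels do not name a directional kit for these libraries, and the strand setting of the counting is not given in the sources used here. Reads of mt-Nd6 and of transcripts running through it on the other strand can therefore not be told apart.

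Some mitochondrial members share their sequence with genes listed in the nuclear genome. A stretch of chromosome 1, on the minus strand of GRCm38 from 24611535 to 24616197, holds a nuclear copy of part of the mitochondrial genome, in which 7 listed genes match mitochondrial members. Gm28661 matched mt-Co2, Gm10925 matched mt-Atp6, Gm28437 matched mt-Co3, Gm10222 matched mt-Nd4l and Gm28439 matched part of mt-Nd4 with 0 mismatches over 681, 678, 783, 294 and 876 bases. Gm28438 matched mt-Nd3 with 1 mismatch over 345 bases, and Gm29216 matched part of mt-Co1 with 1 mismatch over 483 bases. The first 90 bases of 2 of these pairs are shown because they show how little a read can carry to separate the genes. mt-Atp6 is read from chrMT:7927-8016 on the plus strand and Gm10925 from chr1:24614562-24614651 on the minus strand, mt-Nd3 from chrMT:9459-9548 on the plus strand and Gm28438 from chr1:24613030-24613119 on the minus strand, all of GRCm38. Capitals mark the single base at which the second pair differs.
mt-Atp6: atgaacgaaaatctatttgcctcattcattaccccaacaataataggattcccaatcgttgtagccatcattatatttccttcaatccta
Gm10925: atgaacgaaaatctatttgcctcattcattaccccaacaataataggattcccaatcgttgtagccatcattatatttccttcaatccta
mt-Nd3: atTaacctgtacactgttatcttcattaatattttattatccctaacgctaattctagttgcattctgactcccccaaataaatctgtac
Gm28438: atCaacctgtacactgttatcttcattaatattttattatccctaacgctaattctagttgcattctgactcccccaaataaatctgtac

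The 5 members whose sequence lies almost wholly in the copy had lower levels than the other mitochondrial members except mt-Atp8. Of their 100-base windows, 99.5% in mt-Co2, 99.5% in mt-Atp6, 99.9% in mt-Co3, 97.6% in mt-Nd3 and 98.5% in mt-Nd4l also occur in the chromosome 1 genes. Their mean FPKM ran from 20.3 for mt-Nd4l to 125 for mt-Co2. Next to mt-Co2 on the mitochondrial genome lies mt-Co1, which had a mean of 8085. The other members, of which mt-Nd4 and mt-Co1 share 60.8% and 30.8% of their windows with other listed genes and the rest at most 3.2%, had means from 1207 to 8085, mt-Atp8 apart. mt-Atp8, at 2.7 FPKM with at most 14 counts in any tumor, lies between mt-Co2 and mt-Atp6, whose starts are 914 bases apart in the mitochondrial genome and 914 bases apart in the copy, where no listed gene covers its place.

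Counts on the chromosome 1 genes made up a large part of these pairs. They were 45.7% of the counts of mt-Co2 and Gm28661 together, 43.5% for mt-Atp6 and Gm10925, 35.4% for mt-Co3 and Gm28437, 34.5% for mt-Nd4l and Gm10222 and 13.3% for mt-Nd3 and Gm28438. For mt-Nd4 and mt-Co1, with long unshared stretches, they were 0.7% and 0.2%. How the authors' counting treated reads with more than 1 place in the genome is not given in the sources used here, so the levels of the 5 shared members are uncertain. With gene and copy summed, mt-Co2 had 1632 to 3363 counts per tumor, against 162102 to 223928 for mt-Co1. The part of shared reads in the low values was not tested.

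mt-Atp6, part of the proton channel of complex V, had 2095, 828 and 575 counts (Tmem173fl/fl) against 524, 906 and 915 counts (Tmem173iΔmye) (log2 fold change -0.61, SE 0.48, adjusted p = 0.77 from edgeR). One tumor, Tmem173fl/fl replicate 1, stood far above the other 5. mt-Co3 was the 1 mitochondrial member above 0, at 989, 796 and 625 counts (Tmem173fl/fl) against 556, 717 and 1532 counts (Tmem173iΔmye) (log2 fold change 0.20, SE 0.38, adjusted p = 0.902 from edgeR), with Tmem173iΔmye replicate 3 highest and replicate 1 lowest. mt-Nd4l had 97, 197 and 67 counts and 61, 52 and 91 counts in these groups (log2 fold change -0.86, SE 0.46, adjusted p = 0.742 from edgeR). mt-Co2 stood at -0.49 (SE 0.32), mt-Nd3 at -0.30 (SE 0.35) and mt-Atp8 at -0.13 (SE 0.58).

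With the counts of each gene and its chromosome 1 copy summed, mt-Co2 stood at -0.28 (SE 0.30), mt-Atp6 at -0.52 (SE 0.35), mt-Co3 at 0.06 (SE 0.32), mt-Nd3 at -0.27 (SE 0.33) and mt-Nd4l at -0.81 (SE 0.42), and none had an adjusted p under 0.742 from edgeR. The sums kept the direction of each of the 5 genes.

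**Figure D4:**
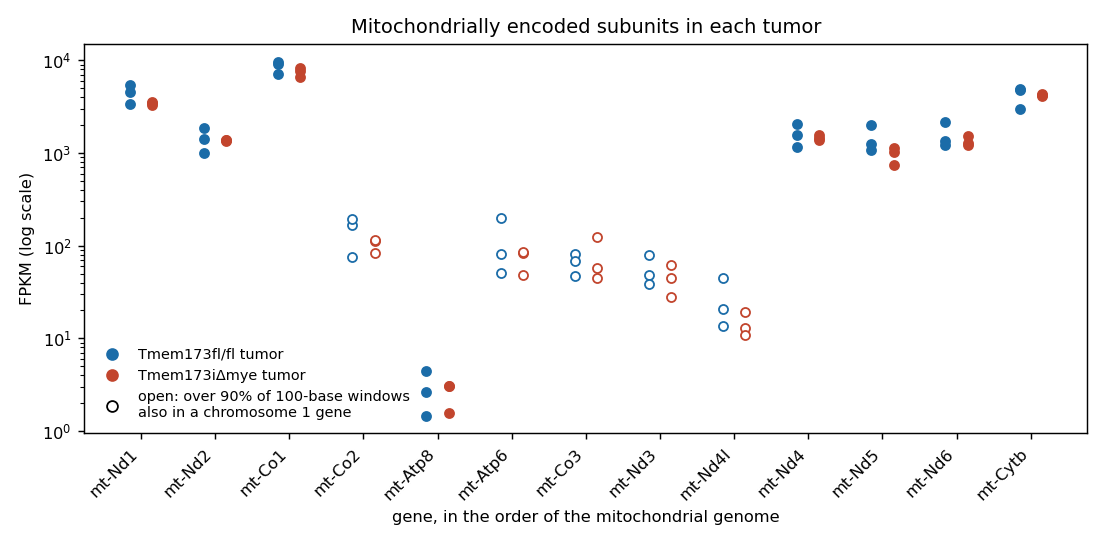
FPKM on a log scale (y axis) of the 13 mitochondrial members in the order of the mitochondrial genome (x axis), with 1 point per tumor, blue for Tmem173fl/fl and red for Tmem173iΔmye; open points mark genes with over 90% of their 100-base windows also in a chromosome 1 gene. The 5 open genes have means from 20.3 to 125 FPKM, below all the filled genes except mt-Atp8.

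The mitochondrial median stayed below 0 when any 1 tumor was left out, from -0.45 to -0.13, while the number of members below 0 changed. Without Tmem173fl/fl replicate 2, 7 of 13 were below 0 and the median was -0.13, and without Tmem173fl/fl replicate 3 the median was -0.45 and mt-Nd1, mt-Nd5, mt-Co2 and mt-Nd4l had an unadjusted p under 0.05, where 1.47% of all genes were lower at that level. With the length offset, the mitochondrial median was -0.56, although the trend was estimated on nuclear protein-coding genes. Without both tumors that stood apart it was -0.10, with 8 of 13 below 0.

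**Figure D5:**
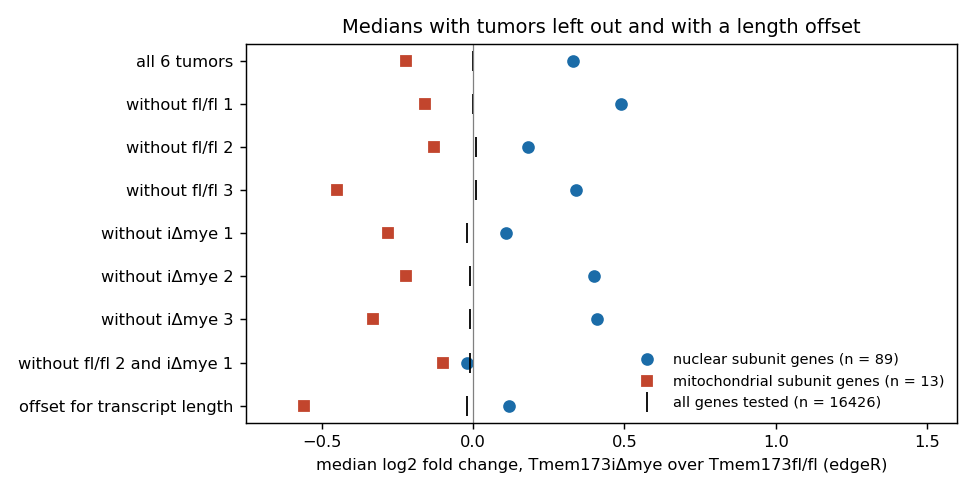
Median log2 fold change, Tmem173iΔmye over Tmem173fl/fl, from edgeR (x axis) of the 89 nuclear members (blue circles), the 13 mitochondrial members (red squares) and all 16426 genes tested (black ticks), with all tumors, with tumors left out and with an offset for transcript length (y axis). The nuclear median runs from -0.02 without Tmem173fl/fl replicate 2 and Tmem173iΔmye replicate 1 to 0.49 without Tmem173fl/fl replicate 1.

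Genes that serve the respiratory chain without being members were examined as lists. Of 37 assembly factors outside the name rule, 27 were above 0, with a median log2 fold change of 0.17, and 2 were higher at an unadjusted p under 0.05 (3.23% of all genes) and 0 lower (2.9% of all genes). Those 2 were Uqcc2, which assembles complex III, at 0.83 (SE 0.34), and Tmem70, which assembles complex V, at 0.33 (SE 0.14), both with an adjusted p of 0.742 from edgeR. Their transcripts are 500 and 1636 bases long. Uqcc2 was highest in Tmem173iΔmye replicate 1 and Tmem70 in Tmem173iΔmye replicate 3, and both were lowest in Tmem173fl/fl replicate 2. Of 16 electron carriers and ubiquinone enzymes, 13 were above 0, with a median of 0.13, and 1, the electron transfer flavoprotein subunit Etfb, had an unadjusted p under 0.05, at 0.90 (SE 0.37, adjusted p = 0.742 from edgeR). Etfb has a transcript of 893 bases and was highest in Tmem173iΔmye replicate 1 and lowest in Tmem173fl/fl replicate 3. The 17 enzymes of the TCA cycle, which feeds the chain, had a median of 0.00, with 11 above 0 and 0 at an unadjusted p under 0.05 with edgeR. Their transcripts had a median length of 2544 bases. Without overlap of the groups, 5 assembly factors were higher and 2 lower, and 4 electron carriers were higher and 0 lower. The TCA enzymes had 0 on either side, where 6.03% of all genes were higher and 6.47% lower.

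Genes that maintain and express mitochondrial DNA had a median of 0.07 over 22 tested, with 14 above 0 and 0 at an unadjusted p under 0.05. Tfam, which packages mitochondrial DNA and starts its transcription, had 40.9, 35.7 and 34.4 CPM in Tmem173fl/fl and 41.1, 38.6 and 38.8 CPM in Tmem173iΔmye tumors (log2 fold change 0.09, SE 0.13, adjusted p = 0.868 from edgeR), with overlapping groups. Of 9 regulators of mitochondrial biogenesis, 2 were above 0, with a median of -0.13. Without overlap of the groups, 2 regulators were lower and 0 higher, and 1 mitochondrial DNA gene was lower and 2 higher. Of all genes, 6.47% were lower without overlap and 6.03% higher. At an unadjusted p under 0.05, 1 regulator was lower (2.9% of all genes) and 0 higher (3.23% of all genes). That 1, Ppargc1a, which encodes the coactivator PGC-1α, had 21.9, 39.0 and 34.7 CPM in Tmem173fl/fl and 14.5, 18.6 and 26.3 CPM in Tmem173iΔmye tumors (log2 fold change -0.69, SE 0.29, adjusted p = 0.742 from edgeR). Its transcript is 6464 bases long, and its highest and lowest tumors were Tmem173fl/fl replicate 2 and Tmem173iΔmye replicate 1, the reverse of the nuclear members.

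Cell markers were set beside the nuclear members. All 12 epithelial markers were above 0, with a median of 0.14, and their sum was 16367, 13567 and 14527 CPM in Tmem173fl/fl and 17614, 15484 and 15282 CPM in Tmem173iΔmye tumors. This sum too was lowest in Tmem173fl/fl replicate 2 and highest in Tmem173iΔmye replicate 1. Markers of absorptive colonocytes lay mostly below 0, with 3 of 9 tested above it and a median of -0.45, and their sum was 993, 507 and 1135 CPM in Tmem173fl/fl and 739, 1051 and 758 CPM in Tmem173iΔmye tumors. Fibroblast markers had 6 of 7 tested above 0 with a median of 0.30. Of 10 adipocyte markers, 3 were tested, with 1 above 0 and a median of -0.16, and 4 were at 0 counts in every tumor. Leukocyte markers had 8 of 10 above 0 with a median of 0.18, and smooth muscle markers 2 of 9 tested with a median of -0.50 and a sum between 250.4 and 468 CPM over the 6 tumors. The part of cell composition in the values of the members was not tested.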

How the data were processed

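For each of the 6 tumors, the deposited table holds unnormalized counts of reads on each gene and FPKM values, on GRCm38 coordinates. Per the submitters' processing notes, CASAVA 1.8, fastp, HISAT2 2.0.5 and featureCounts 1.5.0-p3 were used, and the FPKM values deposited beside the counts were taken as the authors made them, for levels and for the filter. Columns of the authors' DESeq2 1.20.0 comparison (fold changes and p-values) were not used. Totals were 15329810 to 16533732 counts per tumor, and values of a few counts carry a large counting error.

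For 16426 genes the mean FPKM over the tumors reached 0.5, and their counts were fitted in edgeR 4.0.16 under R 4.3.3 with TMM scaling and genotype as the single term. P-values are from the quasi-likelihood test, adjusted over all these genes by Benjamini-Hochberg. SE is the absolute log2 fold change over the square root of F. DESeq2 1.42.0, limma 3.58.1 on log2(FPKM + 1), other filters and scalings, a replicate block and leaving out each tumor were alternatives, and the scripts were tested on simulated data. Transcript lengths and 100-base windows shared between genes (exact, either strand) came from GENCODE vM21, and alignments were made with Biopython 1.88. The length offset is a lowess curve (span 0.3) of each tumor's deviations on log2 transcript length.

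Named genes are all mitochondrial members, the most abundant of each complex, tissue-restricted isoforms with their partners, the c subunit genes, and Cyc1, Tfam, Ppargc1a and those with the lowest p from each list, with exceptions marked. The members and lists were chosen with earlier results of these data known. The labels and methods do not state whether these tumors' mice are littermates or were handled together, so p-values measure the spread between these samples. The labels do not state that same-numbered tumors are paired, so the numbers were not taken to pair the mice. Deviations of same-numbered tumors correlated at 0.262, -0.001 and 0.127, and those of other pairs at -0.299 to 0.179, which does not settle the question.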

Additional observations from a re-analysis of the deposited data

How the results depend on the processing

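No member had an adjusted p under 0.05 in edgeR under any alternative run, and the nuclear median stayed above 0 except where both tumors that stand apart were left out. The value for each gene kept its direction in 597 of 640 repeats, and 43 reversals fell on 21 of the 32 genes followed. The cause of each change below was not tested.

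Genes at an adjusted p under 0.05 numbered 0 with edgeR, 6 with all genes that have any count and 28 with DESeq2. Genes past an absolute log2 fold change of 1 at an unadjusted p under 0.05 numbered 349, and 872 with all genes that have any count, 208 among protein-coding genes alone, 136 with limma on log2(FPKM + 1) and 211 with Y-linked reads as a covariate. Nuclear members at an unadjusted p under 0.05 numbered 0, and 1 with RLE size factors, 16 with all genes that have any count, 2 with DESeq2, 1 with limma on log2(FPKM + 1), 1 with limma on log2(FPKM + 0.1), 1 with Y-linked reads as a covariate, 1 with the length offset and 1, lower, without both tumors. Mitochondrial members at that level numbered 0, and 1 with all genes that have any count, 1 with DESeq2 and 1 with the length offset. In the settings named for either set, 1.83% to 3.57% of all genes were higher at that level and 1.53% to 3.58% lower. With the replicate block, 35 nuclear members were higher at an unadjusted p under 0.05, where 5.36% of all genes were, and mt-Cytb was at 0.03. The numbers were not taken to pair the mice. Tmem173fl/fl replicates 1 and 3 correlated best with the same-numbered Tmem173iΔmye replicates (0.262 and 0.127), and Tmem173fl/fl replicate 2 with Tmem173iΔmye replicate 3 (0.179).

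Leaving out each tumor in turn, genes at an adjusted p under 0.05 ranged from 0 to 1, genes past both limits from 218 to 636, nuclear members at an unadjusted p under 0.05 from 0 to 32 and mitochondrial members from 0 to 4. In these fits, 1.79% to 5.84% of all genes were higher at that unadjusted level and 1.47% to 4.29% lower. The nuclear median ranged from 0.11 to 0.49 and the mitochondrial median from -0.45 to -0.13. Fold changes that changed sign ranged from -0.19 to 0.12 for mt-Cytb, -0.95 to 0.14 for mt-Atp6, -0.45 to 0.34 for mt-Atp8, -0.29 to 0.10 for mt-Nd4, -0.26 to 0.16 for mt-Nd2, -0.38 to 0.07 for mt-Nd6, -0.61 to 0.04 for mt-Nd3, -0.36 to 0.47 for mt-Co3, -0.37 to 1.33 for Ndufa4l2, -0.06 to 0.38 for Atp5g3, -0.01 to 0.09 for Atp5a1, -0.03 to 0.52 for Ndufa4 and -0.03 to 0.58 for Cox7a2.

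mt-Cytb was at 0.01 with all genes that have any count and at 0.03 with limma at either pseudocount. These alternatives were chosen after seeing the data: the length offset, with which the mitochondrial median was -0.56, Atp5a1 0.00, Sdhd -0.01, Ndufa4l2 -0.07 and Atp5g3 -0.08; and leaving out both tumors, with which the nuclear median was -0.02, mt-Cytb 0.10, mt-Nd4 0.04, mt-Nd2 0.17, mt-Nd6 0.13, Ndufaf8 -0.11, Sdhd -0.08, Uqcr10 -0.14, Cox8a -0.09, Cox4i2 -0.02, Ndufa4l2 -0.60, Cox4i1 -0.08, Ndufa4 -0.19, Cox7a2 -0.18, Cox6b1 -0.06, Atp5g1 -0.07 and Atp5g3 -0.25. Summing counts with the chromosome 1 copies left both medians at 0.33 and -0.22.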
